A study of Mus musculus with 12 samples.

Results

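A set of 8 transcription factor genes of the granulocyte and monocyte lineages was followed through spleen cells taken from tumor-bearing mice: Cebpa, Cebpb, Cebpd and Cebpe of the C/EBP family, Spi1, Gfi1, Irf8 and Zeb2. They are a list of names with no threshold on a measured value, drawn up with earlier results of these data known, and all 8 of 8 were found among the 17476 genes counted in either of 2 tables. The mice were wild type (labelled WT), and 12 RNA-seq libraries fell into 4 groups of 3, which the sample titles call biological replicates. Control neutrophils came from tumor-bearing mice without therapy, and CTT neutrophils from mice 12 h after cryo-thermal therapy (CTT), which freezes and then heats a tumor. CTT monocytes came from mice 5 days after CTT, and anti-Ly6G monocytes from mice at the same time after CTT that were also given anti-Ly6G, an antibody against a neutrophil surface protein. All groups share the spleen as source; neutrophils were bound with PE anti-Ly6G, monocytes with PE anti-CCR2, and both were pulled out by a positive selection kit. The sources used here do not give the age of the mice, the tumor line, the purity of the cells or whether mice were pooled, so that a p-value speaks for the spread among libraries and for nothing else.

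Myeloid cells take their identity from a small set of DNA-binding proteins that act together on the same enhancers. PU.1, the product of Spi1, opens chromatin in all myeloid cells. C/EBPα, from Cebpa, commits progenitors to the granulocyte and monocyte lineages, and C/EBPβ, from Cebpb, takes over when demand for granulocytes rises in infection or inflammation. C/EBPδ, from Cebpd, is induced in the acute phase response, and C/EBPε, from Cebpe, drives the last steps of granulocyte maturation and the genes of the secondary granules. GFI1 is a repressor that favours granulocytes by silencing monocyte genes. IRF8 favours monocytes and dendritic cells over granulocytes, and ZEB2 holds the identity of monocytes, macrophages and some dendritic cells. B cells also use PU.1 and IRF8.

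The promoters of the genes behind the ratios described further on, Cebpb to Cebpa and Irf8 to Gfi1, are shown so that their letters can be read beside the values. Each is 300 bases of RefSeq sequence on GRCm38.p6, 5′ to 3′ on the strand of the gene, from 250 bases before the start site to 50 after it, at chr7:35119043-35119342 (plus strand) for Cebpa, chr2:167688665-167688964 (plus) for Cebpb, chr8:120736108-120736407 (plus) for Irf8 and chr5:107725756-107726055 (minus) for Gfi1. Capitals mark matches to a motif on either strand.
Cebpa: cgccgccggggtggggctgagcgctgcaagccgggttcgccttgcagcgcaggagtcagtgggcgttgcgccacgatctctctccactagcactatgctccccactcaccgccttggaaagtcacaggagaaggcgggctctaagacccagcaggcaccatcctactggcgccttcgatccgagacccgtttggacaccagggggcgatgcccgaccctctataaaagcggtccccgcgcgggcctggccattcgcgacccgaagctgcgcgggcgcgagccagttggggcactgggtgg
Cebpb: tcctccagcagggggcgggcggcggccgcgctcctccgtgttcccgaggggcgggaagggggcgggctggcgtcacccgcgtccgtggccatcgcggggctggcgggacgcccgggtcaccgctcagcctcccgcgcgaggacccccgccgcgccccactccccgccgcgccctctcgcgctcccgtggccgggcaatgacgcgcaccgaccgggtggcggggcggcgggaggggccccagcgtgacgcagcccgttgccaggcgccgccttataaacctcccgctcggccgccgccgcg
Irf8: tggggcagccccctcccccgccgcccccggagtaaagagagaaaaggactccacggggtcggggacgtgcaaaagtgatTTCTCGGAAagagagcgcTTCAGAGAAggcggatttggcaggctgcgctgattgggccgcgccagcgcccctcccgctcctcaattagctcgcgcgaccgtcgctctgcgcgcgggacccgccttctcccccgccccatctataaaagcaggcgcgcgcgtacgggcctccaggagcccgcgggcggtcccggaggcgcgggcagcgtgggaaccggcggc
Gfi1: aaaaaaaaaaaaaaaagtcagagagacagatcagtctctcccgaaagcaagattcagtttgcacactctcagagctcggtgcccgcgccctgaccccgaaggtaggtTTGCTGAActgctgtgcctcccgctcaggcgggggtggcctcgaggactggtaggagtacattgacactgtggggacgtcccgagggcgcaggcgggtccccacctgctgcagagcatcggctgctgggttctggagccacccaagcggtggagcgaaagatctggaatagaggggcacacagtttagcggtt
A window was present for 5 of the 8 genes, the fifth being Zeb2, and 5 motifs were searched, with no match overlapping another. The C/EBP motif TTNNGNAA, found in 40.7% of the 32851 promoter windows of this length in the table, matched once in Gfi1, as TTGCTGAA, and once in Zeb2, as TTGCAAAA. The STAT motif TTCNNNGAA, found in 8.3% of windows, matched at 2 places in Irf8, as TTCTCGGAA and TTCAGAGAA. The ETS motif GAGGAA, a core that PU.1 reads and that 28.3% of windows hold, matched in Zeb2. The IRF motif, a pair of GAAA with 2 bases between (3.4% of windows), and the AP-1 motif TGANTCA (7.8%) matched in none of the 5 windows, and those of Cebpa and Cebpb held no match to any of the 5 motifs.

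In the RefSeq annotation of GRCm38.p6, the build named mm10, Cebpa (Entrez 12606) lies on chromosome 7 at 35119293 to 35121928 and Cebpb (12608) on chromosome 2 at 167688915 to 167690432. Cebpd (12609) lies on chromosome 16 at 15887286 to 15889545 and Cebpe (110794) on chromosome 14 at 54710363 to 54712174. Spi1 (20375) lies on chromosome 2 at 91082374 to 91115759 and Gfi1 (14581) on chromosome 5 at 107716655 to 107725805. Irf8 (15900) lies on chromosome 8 at 120736358 to 120756694 and Zeb2 (24136) on chromosome 2 at 44983512 to 45117442. All are protein coding, and values are sums over all exons of a gene. Exons of Tmem189 overlap Cebpb and exons of Spidr overlap Cebpd, both on the opposite strand, and the strand setting of the counting is not known, so reads of these pairs may have been lost or exchanged. Cebpa, Gfi1 and Zeb2 overlap antisense genes that the count tables do not list.

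Libraries held 30942849 to 35956571 counts. Of these, 1 library stood apart: control neutrophil replicate 1 correlated with the other 5 neutrophil libraries at r = 0.924 to 0.962 (log2 CPM over genes), while those 5 correlated with each other at 0.981 or more. It held erythroid markers at a summed 15689 CPM (counts scaled to library size within each table) against 2636 and 870 in the other controls, cell cycle genes at 5893 against 1612 and 1346, and B cell markers at 3550 against 7924 and 8831. Ly6g, whose protein was used to select neutrophils, was at 11.8 ± 2.66 CPM (SD, n = 3, as throughout) in control neutrophils, 19.2 ± 6.42 in CTT neutrophils and 13.6 ± 2.26 in CTT monocytes, and was highest in anti-Ly6G monocytes at 56.1 ± 7.19. Ly6g did not set the libraries labelled neutrophils apart. Csf1r, a monocyte and macrophage receptor, was at 733 ± 53.0 and 738 ± 170 CPM in them and at 2353 ± 597 and 1593 ± 60.2 CPM in CTT and anti-Ly6G monocytes. Ccr2, whose protein was used to select monocytes, was at 96.2 ± 22.1 CPM in control and 169 ± 40.5 in CTT neutrophils. In CTT monocytes it was at 216 ± 41.5 CPM, overlapping CTT neutrophils, and in anti-Ly6G monocytes at 513 ± 73.9. Csf3r, a neutrophil marker, was at 485 ± 72.2 and 831 ± 112 CPM in control and CTT neutrophils. It was at 746 ± 43.4 and 947 ± 278 CPM in CTT and anti-Ly6G monocytes. No marker of any listed cell type was at 0 in any group, so all libraries are described as selected spleen cells under their labels. In such bulk libraries, fewer cells of a type and less RNA per cell cannot be told apart.

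Cebpb, Spi1 and Irf8 dominated the set in every group. Compared per length, as FPKM (fragments scaled to gene length and library size), Cebpb, Spi1 and Irf8 ranked highest in this order in all 4 groups, and Gfi1 ranked last. In control neutrophils their mean levels were 170 FPKM for Cebpb, 167 for Spi1 and 140 for Irf8, with overlapping libraries. Zeb2 followed at 14.6, Cebpd at 14.3 and Cebpa at 12.8 FPKM, again without separation between neighbours, while Cebpe at 6.61 and Gfi1 at 2.56 FPKM each lay below the gene ranked before them in every library. In CTT neutrophils the leading genes separated, with Cebpb at 284, Spi1 at 226 and Irf8 at 129 FPKM. In CTT monocytes Cebpb at 239 FPKM stood above Spi1 at 185 and Irf8 at 184, which overlapped. In anti-Ly6G monocytes Cebpb at 368, Spi1 at 270 and Irf8 at 162 FPKM did not overlap.

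**Figure D1:**
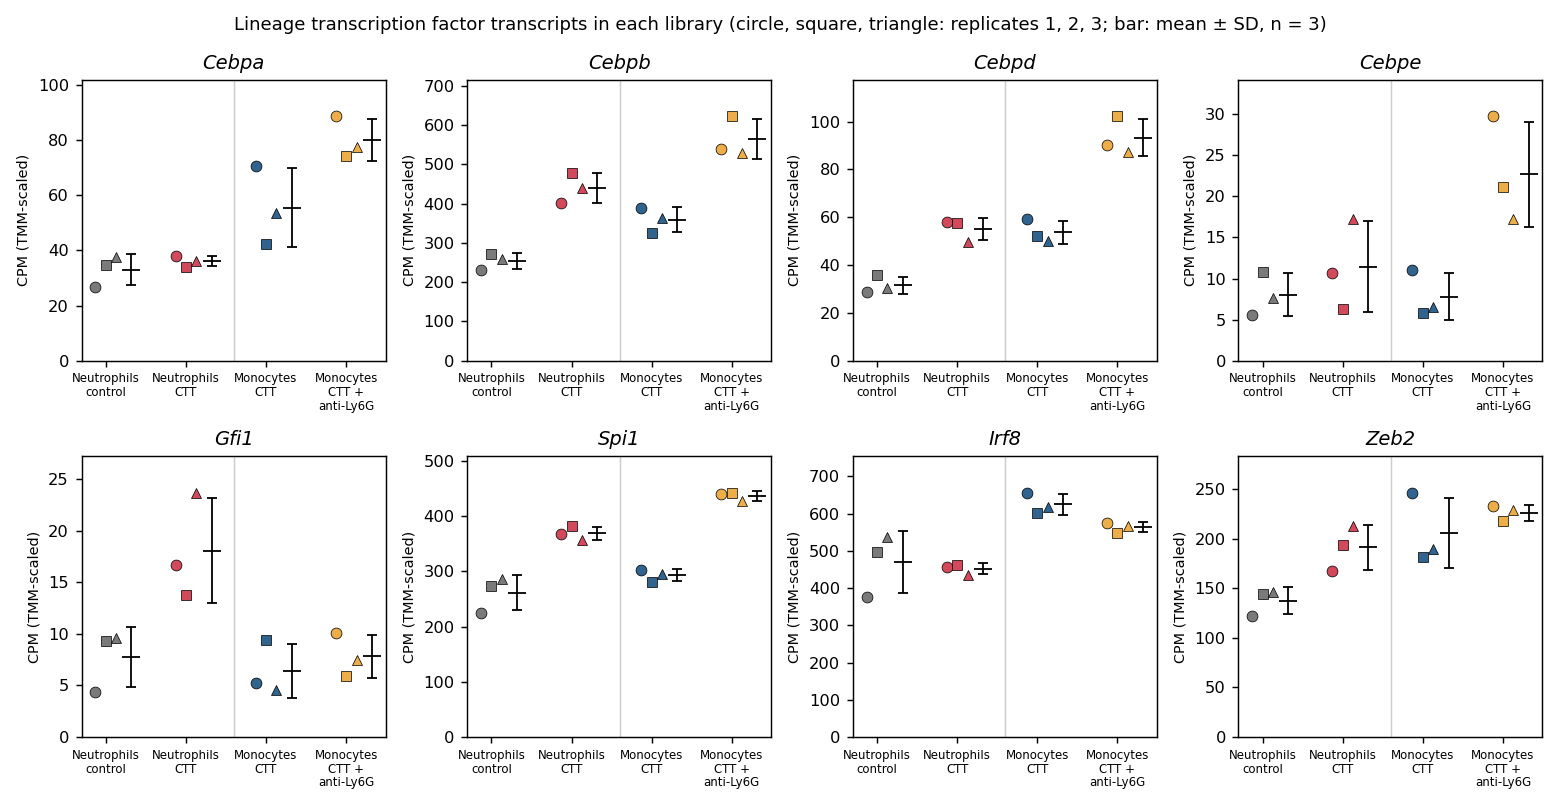
Level of each of the 8 transcription factor genes (TMM-scaled CPM) in each of the 12 libraries, by group of 3, with bars at the group mean ± SD. Cebpb, Cebpd, Spi1, Gfi1 and Zeb2 are higher in all CTT neutrophil libraries than in all controls, and Cebpe is at 17.2 to 29.7 CPM in the anti-Ly6G monocytes, above the 5.80 to 11.1 CPM of the CTT monocytes.

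Cebpb made up most of the summed FPKM of Cebpa, Cebpb, Cebpd and Cebpe in both cell types. This sum leaves out other family members such as Cebpg and Ddit3. Of the summed FPKM, Cebpb held 83.6 ± 1.06% in control neutrophils, 85.9 ± 1.74% in CTT neutrophils, 82.3 ± 1.57% in CTT monocytes and 80.5 ± 1.80% in anti-Ly6G monocytes. The sum itself differed more than the shares, at 204 ± 22.2 FPKM in control and 330 ± 20.5 in CTT neutrophils, 290 ± 27.4 in CTT monocytes and 457 ± 34.2 in anti-Ly6G monocytes. Cebpe held the smallest share in every group, at 3.19% in control neutrophils, 2.76% in CTT neutrophils, 2.15% in CTT monocytes and 3.98% in anti-Ly6G monocytes.

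The first comparison asked how neutrophils change within 12 h of CTT. Levels of Cebpb, Cebpd, Spi1, Gfi1 and Zeb2 were higher in every CTT library than in every control, by 1.39- to 2.33-fold, but none of the 8 genes passed the adjusted threshold of 0.05 (edgeR quasi-likelihood test, Benjamini-Hochberg over 13058 genes). Irf8, Cebpa and Cebpe overlapped between the groups. All 8 passed the filter on low counts, and 0.567% of all genes were called higher and 0 lower. For the 5 genes that did not overlap, the background is 13.6% of all genes higher without overlap. At an unadjusted p below 0.05 there were 5 of 8, all higher, against 8.28% of all genes higher and 5.74% lower. The median log2 fold change was 0.51 over the 8 genes and −0.02 over all genes tested.

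Cebpb, the inflammation-driven member, stood at 230, 271 and 259 CPM in the controls and at 402, 478 and 441 CPM in the CTT neutrophils. Every CTT library lay above every control, and the log2 difference was 0.80 (SE 0.12, adjusted p = 0.0574). Cebpd, the acute phase member, stood at 28.9, 35.7 and 30.3 CPM in controls and 57.8, 57.7 and 49.6 CPM after CTT, a difference of 0.80 (SE 0.14, adjusted p = 0.0823). Both genes thus separated the groups by the same size without passing the threshold. The overlapping Tmem189 differed by 0.44 (SE 0.13, adjusted p = 0.243) and the overlapping Spidr by −0.03 (SE 0.19, adjusted p = 0.947). Cebpa, the lineage-commitment member, was at 26.7, 34.7 and 37.6 CPM in controls and 37.9, 34.2 and 36.3 CPM after CTT, which overlap, with a difference of 0.13 (SE 0.16, adjusted p = 0.704). Cebpe, which acts late in granulocyte maturation, was at 5.62, 10.8 and 7.59 CPM against 10.7, 6.30 and 17.3 CPM (log2 difference 0.51, SE 0.40, adjusted p = 0.540). Its CTT libraries spread more widely than the group means differed.

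Spi1, encoding PU.1, stood at 225, 273 and 286 CPM in controls and 368, 382 and 357 CPM after CTT, a difference of 0.50 (SE 0.13, adjusted p = 0.196). Gfi1, the granulocyte-side repressor, had the largest difference of the 8 from low levels, at 4.39, 9.26 and 9.63 CPM in controls and 16.7, 13.8 and 23.7 CPM after CTT (log2 difference 1.22, SE 0.35, adjusted p = 0.244). The groups were separate for both genes, and for Gfi1 the lowest control was replicate 1. Irf8, the monocyte and dendritic cell factor, did not follow: it was at 376, 498 and 537 CPM in controls and 457, 463 and 436 CPM after CTT (log2 difference −0.06, SE 0.15, adjusted p = 0.872). The CTT libraries all fell inside the range of the controls, which reached below them only through replicate 1. Zeb2 stood at 122, 144 and 146 CPM in controls and 167, 194 and 212 CPM after CTT, again separate, with a difference of 0.48 (SE 0.14, adjusted p = 0.251).

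Control replicate 1, the library that stood apart, was also the lowest control for all 8 genes. Without it, Cebpb (log2 fold change 0.74, adjusted p = 0.0131), Cebpd (0.74, adjusted p = 0.0224) and Spi1 (0.40, adjusted p = 0.0484) rose in CTT neutrophils, where 1.93% of all genes were called higher and 0.233% lower. Irf8 was then lower in every CTT library than in control replicates 2 and 3. Its log2 difference was −0.19 (edgeR adjusted p = 0.311), and it was not called. DESeq2 on all 6 libraries called Cebpb (adjusted p = 6.6e-06), Cebpd (1.56e-04), Gfi1 (0.0252) and Spi1 (0.0317), where it called 3.48% of all genes higher and 0.819% lower. Marker sums moved as well: the 16 neutrophil markers summed to 4162 to 6140 CPM in controls and 7762 to 12911 CPM after CTT, with 2 of 16 called higher. Sums were also separate for neutrophil precursor markers (329 to 494 CPM in controls, 528 to 957 after CTT), monocyte markers (2388 to 2945 and 3314 to 5725) and dendritic cell markers (704 to 947 and 1008 to 1428), with no marker of these lists called. A sum can follow a few abundant genes. Among the monocyte markers Nr4a1 went from 943 ± 287 to 2235 ± 921 CPM, while Csf1r was level. The median log2 fold change was 0.77 over precursor, 0.23 over monocyte and −0.11 over dendritic cell markers. The sums of the other 7 lists overlapped, also with no marker called, and the erythroid sum was 436 to 1045 CPM after CTT. The part of these shifts in the results for the transcription factors was not tested.

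The ratio between family members separated the groups as well. The log2 ratio of Cebpb to Cebpa FPKM was 3.91, 3.76 and 3.58 in the control libraries, while after CTT Cebpb exceeded Cebpa by 18.4-, 24.3- and 21.1-fold. Its mean was 3.75 ± 0.16 in controls and 4.40 ± 0.20 in CTT neutrophils, a difference of 0.65 without overlap. The exact two-sided permutation test gave p = 0.1, the smallest that 3 against 3 libraries can give. Irf8 exceeded Gfi1 by 77.4-, 48.7- and 50.4-fold in controls and by 24.7-, 30.4- and 16.7-fold after CTT. That log2 ratio was 5.84 ± 0.37 in controls and 4.54 ± 0.44 after CTT, a difference of −1.31 and again the smallest exact permutation p of 0.1. Of this pair, Gfi1 levels were separate between the groups and Irf8 levels overlapped, the overlap resting on control replicate 1.

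**Figure D2:**
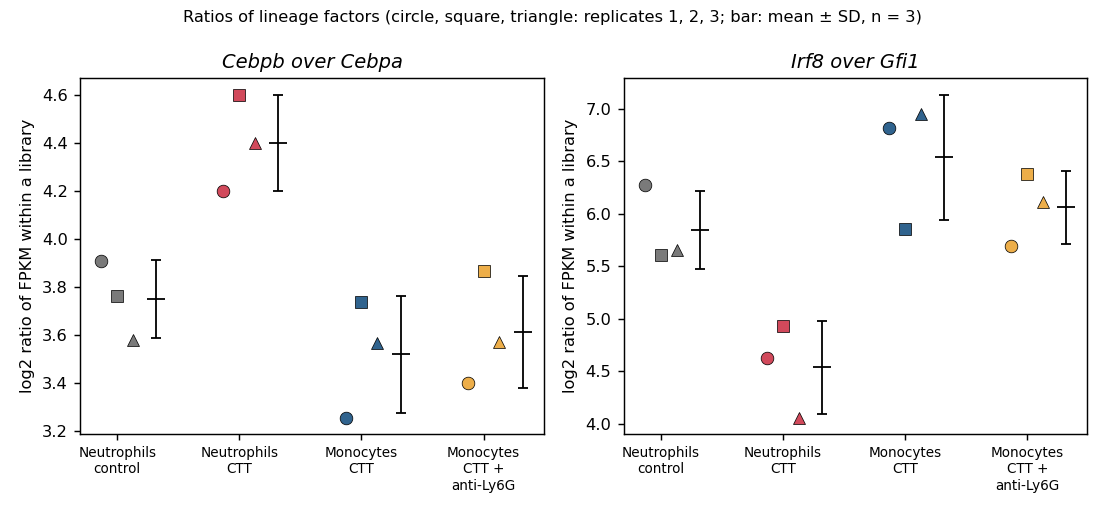
Log2 FPKM ratios of Cebpb to Cebpa and of Irf8 to Gfi1, with 1 point per library and bars at the mean ± SD of 3. Control and CTT neutrophils do not overlap in either ratio (means 3.75 and 4.40, and 5.84 and 4.54), while the monocyte groups overlap in both.

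Genes linked to these factors by prior knowledge were read from 3 lists, and the links were not tested here. Of 45 tested other myeloid lineage transcription factors and their regulators, 1 rose and none fell in CTT neutrophils, with a median log2 fold change of 0.21. The one was Ets2, an ETS family factor, at 109 ± 27.0 CPM in controls and 352 ± 46.4 after CTT (log2 fold change 1.69, SE 0.21, adjusted p = 0.0299). Trib1, which directs C/EBPα protein to degradation, missed the threshold at 1.07 (SE 0.18, adjusted p = 0.0752), as did Ddit3, a C/EBP family member of the stress response (0.88, adjusted p = 0.122), and Klf4, a monocyte factor (1.20, adjusted p = 0.127). Of 28 receptor and granule genes listed for C/EBP factors and PU.1, 3 rose and none fell, with a median of 0.78. They were Mmp8, the neutrophil collagenase (log2 fold change 1.94, SE 0.16, adjusted p = 0.0132), Cd14, the lipopolysaccharide coreceptor (1.72, SE 0.15, adjusted p = 0.0132), and Saa3, an acute phase protein (2.84, SE 0.33, adjusted p = 0.0296). Il1b, encoding interleukin 1β, missed it at 1.17 (adjusted p = 0.0636). None of 15 IRF8-linked antigen presentation and dendritic cell genes passed, with a median of 0.16. Without control replicate 1 the counts were 6, 6 and 1 higher and 0 lower, where 1.93% of all genes were called higher. Without any 1 of the other 5 neutrophil libraries 0 of all tested genes were called, which fixed the counts of all 3 lists at 0. The median of the receptor and granule list was then 0.57 to 0.93.

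The second comparison asked what anti-Ly6G changed in monocytes 5 days after CTT. Cebpb, Cebpd, Cebpe and Spi1 rose in anti-Ly6G monocytes, by 1.49- to 2.91-fold, and none of the 8 genes fell. Cebpe moved most. Cebpa was higher in every anti-Ly6G library without passing the threshold, Irf8 was lower in every one without passing it, and Gfi1 and Zeb2 overlapped. The 4 of 8 called higher stand beside 10.2% of all 13294 tested genes called higher and 5.12% called lower (edgeR, adjusted p below 0.05). The median log2 fold change was 0.55 over the 8 genes and 0.00 over all genes tested. At an unadjusted p below 0.05 there were 5 higher and 1 lower, against 17.5% and 13.4% of all genes. The 4 adjusted calls were kept when any 1 of the 6 libraries was left out.

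Cebpe, the late granulocyte factor, stood at 11.1, 5.80 and 6.48 CPM after CTT alone and at 29.7, 21.1 and 17.2 CPM with anti-Ly6G. The groups were separate, with CTT replicate 1 the highest of its group, and the log2 fold change was 1.54 (SE 0.27, adjusted p = 0.00663). Cebpd stood at 59.1, 52.0 and 49.9 CPM against 90.3, 102 and 87.3 CPM, which gives a log2 fold change of 0.80 with SE 0.09 (adjusted p = 7.28e-04). Cebpb stood at 389, 325 and 364 CPM against 540, 622 and 530 CPM, which gives 0.65 on the log2 scale with SE 0.09 (adjusted p = 0.00208). Both were separate by a wide margin relative to the spread of their libraries. The overlapping Tmem189 differed by 0.18 (SE 0.06, adjusted p = 0.0716) and Spidr by 0.16 (SE 0.07, adjusted p = 0.186), neither called. Cebpa stood at 70.7, 42.3 and 53.4 CPM against 88.7, 74.1 and 77.5 CPM, a log2 difference of 0.53 (SE 0.16, adjusted p = 0.0586). CTT replicate 1 was the highest of its group and came close to the lowest anti-Ly6G library. Without that replicate Cebpa rose by 0.74 (adjusted p = 0.00135), and DESeq2 on all 6 libraries also called it (adjusted p = 0.0180).

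Spi1 had the smallest error of the set, at 303, 281 and 295 CPM after CTT alone and 441, 443 and 427 CPM with anti-Ly6G (log2 fold change 0.57, SE 0.06, adjusted p = 5.01e-04). The libraries within each group were nearly level and the groups far apart. Gfi1 was low and overlapping, at 5.28, 9.43 and 4.52 CPM against 10.05, 5.96 and 7.42 CPM (log2 difference 0.28, SE 0.30, adjusted p = 0.561). Irf8 stood at 656, 602 and 617 CPM against 575, 548 and 567 CPM, lower in 3 of 3 anti-Ly6G libraries by a log2 difference of −0.15 (SE 0.06, adjusted p = 0.118). Of all genes, 15.4% were lower without overlap and 20.6% higher without overlap, against 1 and 5 of the 8. Zeb2 stood at 246, 182 and 190 CPM against 233, 217 and 228 CPM (log2 difference 0.14, SE 0.11, adjusted p = 0.437). CTT replicate 1 was the highest of all 6 monocyte libraries for Zeb2. Without it Zeb2 rose by 0.28 (adjusted p = 0.0085).

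**Figure D3:**
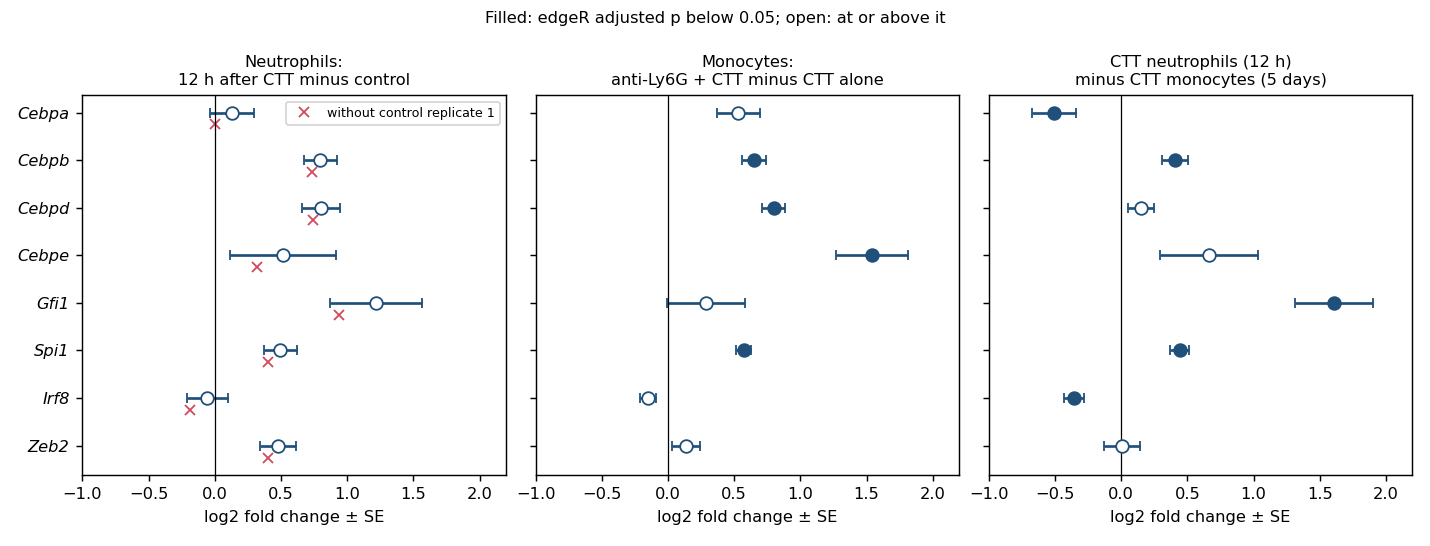
Log2 fold change of each of the 8 genes in the 3 comparisons, with bars of 1 SE and filled points for an adjusted p below 0.05; crosses give the neutrophil values without control replicate 1. In monocytes Cebpb, Cebpd, Cebpe and Spi1 are filled, from 0.57 to 1.54. In neutrophils after CTT none is filled although Cebpb and Cebpd reach 0.80, for Cebpd the same size as in monocytes. The neutrophil libraries spread more, with a common coefficient of variation (edgeR) of 0.275 against 0.114. Numbers of filled points in the 2 comparisons therefore do not measure a difference between the cell types.

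Neither ratio separated the monocyte groups. Cebpb exceeded Cebpa by 9.56-, 13.3- and 11.8-fold after CTT alone and by 10.6-, 14.6- and 11.9-fold with anti-Ly6G. The log2 ratio was 3.52 ± 0.24 and 3.61 ± 0.23, a difference of 0.09 (exact two-sided permutation p = 0.7). Irf8 exceeded Gfi1 by 113-, 57.7- and 123-fold against 51.7-, 83.2- and 69.1-fold, a log2 difference of −0.48 (exact two-sided permutation p = 0.3).

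Of the 28 receptor and granule genes listed for C/EBP factors and PU.1, 21 rose, 1 fell and 6 did not pass. Over all genes, 10.2% were called higher and 5.12% lower. The median log2 fold change of the 28 was 1.03, against 0.00 over all genes tested. Mmp8 went from 78.3 ± 14.1 to 364 ± 43.4 CPM (log2 fold change 2.22, SE 0.14) and Mmp9, the gelatinase of tertiary granules, from 322 ± 8.93 to 901 ± 116 CPM (1.48, SE 0.09). S100a9, a subunit of calprotectin, went from 1499 ± 223 to 4718 ± 624 CPM (1.65, SE 0.13), and Saa3 from 2.64 ± 1.10 to 23.1 ± 1.55 CPM (3.13, SE 0.24). These 4 had edgeR adjusted p-values of 1.69e-04 or less. Mmp8, Mmp9 and S100a9 are also among the neutrophil markers described below, so the counts of both lists share genes. Csf1r, the M-CSF receptor that marks monocytes and macrophages, was the one that fell, by 0.56 on the log2 scale (SE 0.15, adjusted p = 0.0363). Without CTT replicate 3 the count was 13 higher and 0 lower, without anti-Ly6G replicate 1 it was 15 and 0, and it was 18 to 23 higher without any other library.

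**Figure D4:**
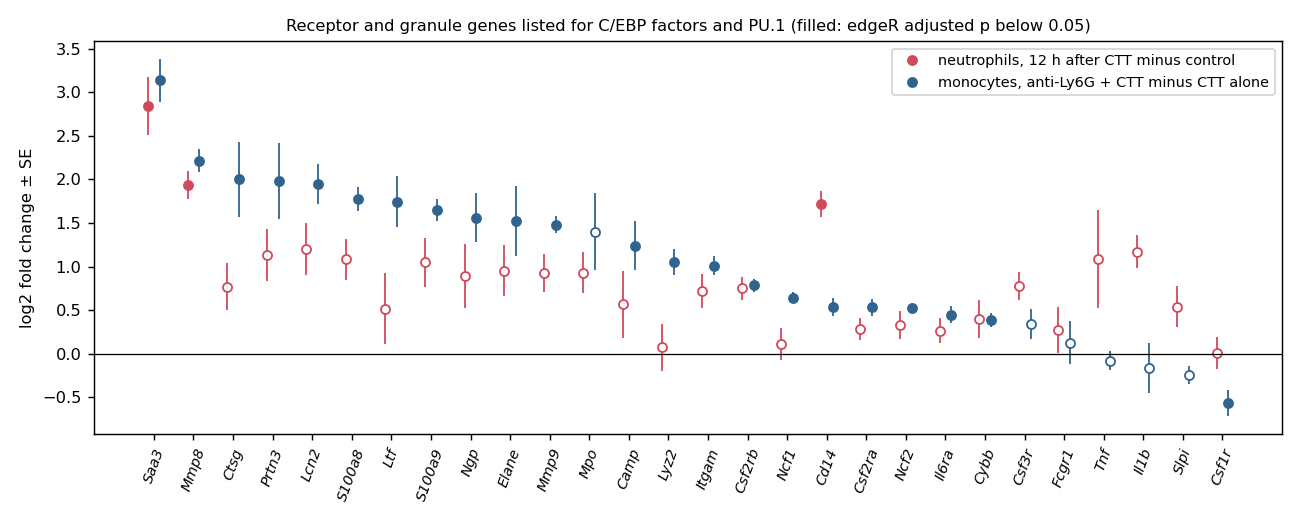
Log2 fold changes of the 28 receptor and granule genes listed for C/EBP factors and PU.1 in neutrophils after CTT and in monocytes with anti-Ly6G, with bars of 1 SE and filled points for an adjusted p below 0.05. In monocytes 21 rose and 1 fell (median 1.03), and in neutrophils, whose libraries spread more, 3 rose (median 0.78).

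The other lists split or stayed near zero. Of 46 other myeloid lineage transcription factors and their regulators, 4 rose and 6 fell, with a median of −0.06. Bach1, a heme-regulated repressor (log2 fold change 0.67, SE 0.07, adjusted p = 5.83e-04), Rara, a retinoic acid receptor (0.45, SE 0.06, adjusted p = 0.00204), Stat3, which relays G-CSF and IL-6 signals (0.38, SE 0.05, adjusted p = 0.00207), and Id1 (0.85, SE 0.17, adjusted p = 0.0136) rose. Among those that fell were Nr4a1, which nonclassical monocytes need, Egr2, Bach2, Egr1 and Maf, a macrophage factor, by 0.32 to 0.55 on the log2 scale. Leaving out CTT replicate 1 gave 8 higher and 13 lower, and leaving out any 1 of the other 5 libraries gave 3 to 4 higher and 0 to 4 lower. Of the 15 IRF8-linked genes, 2 rose and 2 fell, with a median of −0.03. Ifi30, a lysosomal thiol reductase (0.40, adjusted p = 0.00616), and Naaa (0.51, adjusted p = 0.00883) rose, while Cd74, the MHC class II invariant chain (−0.39, adjusted p = 0.00967), and H2-Ab1, an MHC class II chain (−0.32, adjusted p = 0.0249), fell. The count without 1 library was 2 higher in all 6 cases and 0 to 4 lower.

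Markers of other cells were called in the same comparison, beside 10.2% of all genes called higher and 5.12% lower. The 16 neutrophil markers summed to 4897 to 6746 CPM after CTT alone and to 13575 to 18330 CPM with anti-Ly6G, and 14 of 16 rose. The 9 neutrophil precursor markers, of which Cebpe is one, summed to 387 to 940 CPM and 1349 to 2053 CPM, and 8 of 9 rose; without Cebpe the sums were 381 to 929 CPM and 1331 to 2023 CPM. Red pulp macrophage markers went the other way, from 9620 to 16070 CPM down to 7518 to 8169 CPM, and 9 of 11 fell. B cell markers summed to 4045 to 5929 CPM and 3128 to 4320 CPM, and 2 of 11 fell. Erythroid markers summed to 1385 to 2132 CPM and 830 to 1354 CPM, and 2 of 14 fell. Cell cycle genes summed to 1625 to 1860 CPM and 2060 to 2343 CPM, and 9 of 15 rose. Of 10 monocyte markers 6 rose and 3 fell, of 9 T cell markers 3 rose and 1 fell, of 7 NK cell markers 1 rose and 1 fell, and no dendritic or plasma cell marker was called. No list had a marker at 0, and the part of these shifts in the results for Cebpb, Cebpd, Cebpe and Spi1 was not tested.

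The third comparison set CTT neutrophils against CTT monocytes. Gfi1, Spi1 and Cebpb were higher in the neutrophils, and Irf8 and Cebpa were higher in the monocytes. Cebpd, Cebpe and Zeb2 did not pass. These 3 higher and 2 lower stand beside 21.4% of 13209 genes called higher in neutrophils, 21.9% lower and 43.2% in either direction. The groups did not overlap for 3 genes higher and 2 lower, against 27.4% and 29.0% of all genes, and the same 5 had an unadjusted p below 0.05, against 25.4% higher and 26.0% lower. Cell type, selecting antibody and time after CTT (12 h against 5 days) differ together here and cannot be told apart.

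On a common scale of both tables, Gfi1 had a mean of 18.7 ± 5.24 CPM in CTT neutrophils and 6.13 ± 2.49 in CTT monocytes, the largest difference of the 8 (log2 fold change 1.61, SE 0.30, adjusted p = 0.00284). Spi1 was at 382 ± 12.6 and 281 ± 12.0 CPM (0.44, SE 0.07, adjusted p = 0.00178). Cebpb was at 455 ± 39.6 and 344 ± 32.8 CPM (0.41, SE 0.10, adjusted p = 0.0109), and its overlapping neighbour Tmem189 differed by as much (0.46, SE 0.07, adjusted p = 0.00113). All 3 of these were higher in 3 of 3 neutrophil libraries than in any monocyte library. Irf8 was at 468 ± 14.8 CPM in neutrophils and 598 ± 29.6 in monocytes (−0.36, SE 0.08, adjusted p = 0.00562), again without overlap. Cebpa was at 37.4 ± 1.94 and 53.1 ± 14.0 CPM (−0.51, SE 0.17, adjusted p = 0.0368), and this call was lost when any 1 library other than CTT monocyte replicate 2 was left out (adjusted p = 0.0583 to 0.107, with a difference of −0.29 without CTT monocyte replicate 1). Cebpd (0.15, SE 0.10, adjusted p = 0.253), Cebpe (0.66, SE 0.37, adjusted p = 0.176) and Zeb2 (0.00, SE 0.13, adjusted p = 0.982) overlapped. On the FPKM scale Cebpd was level, at −0.0066 to −0.0062, and Zeb2 was at −0.14, neither called (limma adjusted p = 0.362 or more). That scale also moved the share of higher calls among all called genes from 49.4% to between 27.7% and 28.9%, and the median of all genes from −0.02 to between −0.05 and −0.14; Cebpb was then at 0.25 and not called (limma adjusted p = 0.0534 to 0.0823).

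Of the 45 other lineage transcription factors and regulators tested here, 21 were higher and 7 lower in neutrophils. The 4 with the smallest p were Ets2 (log2 fold change 2.34), Klf2 (1.84), Trib1 (2.38) and Ddit3 (1.47). Of the receptor and granule genes 12 were higher and 5 lower, with Mmp8 at 2.08, Cd14 at 1.16 and Il1b at 1.01, but Csf2ra, a subunit of the GM-CSF receptor, at −1.07. Of the IRF8-linked genes 6 were higher and 3 lower; of the 4 with the smallest p, Cd74 (0.98) and H2-Ab1 (0.72) were higher in neutrophils, and Batf3 (−1.18) and Clec9a (−0.58) were lower.

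Every marker list held called genes here, beside 21.4% of all genes called higher in neutrophils, 21.9% lower and 43.2% in either direction. The counts of the neutrophil precursor, monocyte and erythroid lists did not exceed that 43.2%. In the neutrophils, 8 of 16 neutrophil markers were higher (sums of 8034 to 13353 CPM against 4693 to 6487 CPM in the monocytes), as were 7 of 11 B cell markers (7600 to 8074 against 3889 to 5643 CPM), 9 of 9 T cell markers (253 to 323 against 108 to 132 CPM) and 1 of 9 neutrophil precursor markers. In the monocytes, 11 of 11 red pulp macrophage markers were higher (9155 to 15452 against 3149 to 3936 CPM in the neutrophils), as were 10 of 15 cell cycle genes (1558 to 1789 against 1133 to 1465 CPM), 4 of 6 plasma cell markers and 5 of 14 erythroid markers. Other lists went both ways: of 11 dendritic cell markers 2 were higher and 4 lower in neutrophils, although their sum was higher there (1043 to 1477 against 725 to 830 CPM), of 7 NK cell markers 6 were higher and 1 lower, and of 10 monocyte markers 1 was higher and 1 lower. The part of these shifts in the differences of Gfi1, Spi1, Cebpb, Irf8 and Cebpa was not tested.

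Each gene was also set beside the genes most like it over the 12 libraries, as a description: the libraries share groups, cell types and depth, so no p is given. Among 9251 protein coding genes with a mean of at least 10 CPM, Pearson correlation of log2 CPM was highest with Met (0.980) and Il6ra (0.973) for Cebpa, and with Bmx (0.978) and Nfam1 (0.972) for Cebpb. Cebpd was closest to Nlrx1 (0.981) and Xdh (0.973), and Cebpe to Ltf (0.977), which encodes lactoferrin of the secondary granules, and Itgb2l (0.976). Spi1 was closest to Anxa11 (0.987) and Pxn (0.971), Gfi1 to Cwc25 (0.957) and Cited2 (0.940), Irf8 to Fam168b (0.960) and Btbd2 (0.942), and Zeb2 to Tmed7 (0.975) and Ctsa (0.962). Within the set, Cebpb followed Cebpd (0.936) and Spi1 (0.934) most closely, whereas Irf8 ranged from −0.34 with Gfi1 through −0.03 with Spi1, 0.02 with Cebpe, 0.08 with Cebpb, 0.24 with Cebpd and 0.43 with Zeb2 to 0.60 with Cebpa.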

How the data were processed

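TRIzol and the VAHTS Universal V6 kit were used to prepare 12 RNA-seq libraries, per the labels' protocols. The authors deposited whole-number counts per gene and FPKM values in 1 table per cell type (16805 and 16954 genes). HISAT2, HTSeq and mm10 are named in the submitters' processing notes; the sources used here do not give their versions, the annotation or whether strand was used. The deposited FPKM values equal count over gene length and library total.

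Counts were tested in R 4.3.3 with edgeR 4.0.16 (filterByExpr, TMM, quasi-likelihood F test, two-sided, Benjamini-Hochberg over all tested genes, threshold 0.05), each comparison fitted on its own 6 libraries; the SE is the absolute log2 fold change over the square root of F. The cross-cell-type comparison used the 16283 genes in both tables, scaled together. CPM elsewhere is scaled within a table. Coordinates and promoters came from RefSeq GRCm38.p6, with 16709 and 16849 Entrez IDs matched. The code was tested on simulated data. No libraries were duplicates (chi-square over genes).

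The 8 genes, the 3 lists and the marker lists were chosen with earlier results of these data known, so their counts are not independent evidence of direction. Named are all 8 genes, up to 4 genes of smallest p per list and comparison and the 2 most correlated genes per member. Ly6g, Ccr2, Csf3r and Csf1r were named as checks of the labelled selection. The falling factors beyond this rule, the fall of Csf1r, Nr4a1 among the monocyte markers and the overlapping Tmem189 and Spidr were named after their values were seen. Alternatives were other size factors (RLE), no filter, at least 1 CPM in 3 libraries, DESeq2 1.42.0, limma 3.58.1 (voom, and log2 FPKM with pseudocounts of 1 and 0.1, or of 1 with mean FPKM of at least 1), the replicate block and each library left out.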

Additional observations from a re-analysis of the deposited data

How the results depend on the processing

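In neutrophils after CTT, the count of the 8 genes called went from 0 to 4 with DESeq2 and ranged from 0 to 3 when 1 library was left out, 3 being without control replicate 1; over all genes, 74 called became 562 with DESeq2, 8 and 27 with log2(FPKM + 1) and log2(FPKM + 0.1), and 0 to 288 with 1 library left out. Irf8 there ranged from −0.19 to 0.052, positive without control replicate 3. In monocytes, 2035 genes called became 1205 and 1279 on the same FPKM scales and 938 to 2855 with 1 library left out, and the log2 ratio of Cebpb to Cebpa ranged from −0.039 to 0.20, negative without CTT replicate 1 (−0.039) and without anti-Ly6G replicate 2 (−0.034). Between the cell types, Cebpd was −0.0062, −0.0066 and −0.0062 on the 3 FPKM scales, and Zeb2 was −0.14 on each, −0.0011 with at least 1 CPM in 3 libraries, and −0.00064, −0.075, −0.081 and −0.052 without neutrophil replicates 2 and 3 and monocyte replicates 2 and 3, with 0.16 the highest value without 1 library. Cebpa there was not called with voom (adjusted p = 0.052), and Cebpb not on the FPKM scales. The cause of these changes was not tested.

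Whether libraries with the same replicate number were paired could not be decided, because deviations from a mean of 3 libraries depend on each other. Deviations of same-numbered libraries correlated at 0.25, 0.00 and 0.23 in neutrophils, 0.17, −0.06 and 0.22 in monocytes, and −0.13, −0.02 and 0.01 between cell types. Those of differently numbered libraries ranged from −0.26 to 0.22, from −0.23 to 0.09 and from −0.15 to 0.15. With the replicate block, 0, 5 and 5 of the 8 genes were called in the 3 comparisons, the fifth in monocytes being Cebpa (edgeR adjusted p = 0.0074). Over all genes, 5 were called in neutrophils, 2594 in monocytes and 4936 between the cell types, against 74, 2035 and 5710 without the block. In monocytes the SE of Cebpe was 0.13 with the block and 0.27 without it. Counts behind the lowest values, those of Gfi1 and Cebpe, were 154 or more in every library.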
